A study of Mus musculus with 16 samples.

Results

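The thin filament of striated muscle carries its calcium switch in the troponin and tropomyosin proteins, and 10 of the 41388 genes in the count table encode their muscle isoforms: Tnnc1, Tnnc2, Tnni1, Tnni2, Tnnt1, Tnnt2, Tnnt3, Tpm1, Tpm2 and Tpm3. They were picked by gene symbol, in a choice of family made with earlier results of these data known, and all 10 passed the filter on low counts in every comparison. They were read in RNA from the quadriceps muscle of C57BL/6 mice at 36 days of age, in wild type mice (WT), wild type mice given tamoxifen (WT + TAM), Mtm1 knockout mice (KO) and Mtm1 knockout mice given tamoxifen (KO + TAM). The knockout lacks exon 4 of Mtm1, the gene mutated in myotubular myopathy, and serves as a mouse model of that disease. Tamoxifen, a selective estrogen receptor modulator, was mixed into the chow at 40 mg/kg from day 21, and the other groups had chow without it. The study kept 3 WT, 4 WT + TAM, 3 KO and 4 KO + TAM libraries, and these 14 libraries are the basis of what follows. Each library was taken as 1 mouse, which the labels do not state, and the study drew its samples from littermates, with the litter of each not given in the sources used here, so that p-values measure the spread between these libraries.

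Troponin C binds calcium, troponin I holds the filament off at low calcium, and troponin T ties both to tropomyosin, a coiled coil that lies along actin. Most of these proteins exist as a slow and a fast form from separate genes: Tnnc1, Tnni1 and Tnnt1 encode the slow troponins, with Tnnc1 shared with the heart, and Tnnc2, Tnni2 and Tnnt3 the fast ones. Tnnt2 encodes cardiac troponin T, which skeletal muscle also makes during its development. Tpm1 encodes the alpha tropomyosin of fast fibers and the heart, Tpm2 the beta form, and Tpm3 the tropomyosin of slow fibers along with cytoplasmic forms.

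Members of each family differed between KO and WT muscle. Averaged over both diets, 7 of the 10 members were called different between KO and WT, against 19.4% of all 15556 genes tested. Tnnt2 was 3.98-fold higher, Tnni1 5.63-fold higher and Tnnt1 4.53-fold higher in KO muscle. Tpm1 was 2.07-fold lower, Tnnt3 1.71-fold lower, Tnnc2 1.55-fold lower and Tnni2 1.54-fold lower. No member was called for tamoxifen, in KO or in WT, where 0 of 15062 genes and 0.131% of all genes were called.

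Sequencing depth was 25702605 to 29847222 counted reads per library, and 5 of the 10 members were among the 100 genes with the most counts in every library. The members together took 7.49 to 8.39% of all counts in WT, 6.99 to 8.69% in WT + TAM, 5.01 to 6.13% in KO and 5.52 to 7.41% in KO + TAM. Mtm1 had 341 to 369 counts in the WT libraries, 282 to 459 in WT + TAM, 63 to 76 in KO and 53 to 97 in KO + TAM, and reads from its remaining exons are still counted in the knockout. The fast myosin gene Myh4 had the highest RPKM (counts divided by the library total and the gene length) of the 6 myosin genes listed as markers in each group, between 2433 and 7548. The library labelled WT replicate 1, which the study left out, had 74 Mtm1 counts, within the range of the knockout libraries, which goes against its label. The 7 immature fiber markers named below went with its label and summed to 20.9 RPKM in it. That sum was 24.8 to 25.7 in WT and 122 to 168 in KO. Sox6, a regulator described below, did not go with its label, at 4.475 RPKM in it. Sox6 was at 11.2 to 19.9 RPKM in the WT libraries and 7.25 to 9.24 in the KO libraries, on both diets. The genotype of this library was not tested. The library labelled KO replicate 12, also left out, had 85 Mtm1 counts.

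The positions of the members are given on GRCm38 with the GENCODE vM21 annotation. Tnni1 (ENSMUSG00000026418, chr1:135779434-135810989) and Tnnt2 (ENSMUSG00000026414, chr1:135836354-135852260) lie 25364 bases apart on the plus strand of chromosome 1. Tnni2 (ENSMUSG00000031097, chr7:142441808-142444410) and Tnnt3 (ENSMUSG00000061723, chr7:142498836-142516009) lie 54425 bases apart on the plus strand of chromosome 7. Tnnt1 (ENSMUSG00000064179, chr7:4504570-4516382) lies on the minus strand of the same chromosome, 1922 bases from Tnni3, the cardiac troponin I gene. The other members are Tnnc1 (ENSMUSG00000091898, chr14:31208312-31211729, plus strand), Tnnc2 (ENSMUSG00000017300, chr2:164777161-164779967, minus strand), Tpm1 (ENSMUSG00000032366, chr9:67022590-67049406, minus strand), Tpm2 (ENSMUSG00000028464, chr4:43514711-43523765, minus strand) and Tpm3 (ENSMUSG00000027940, chr3:90072649-90100902, plus strand). The values are sums over each gene, so that splice forms of a gene are not told apart.

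The 250 bases before the RefSeq start site (GRCm38.p6) are shown for the 3 slow troponins, Tnnt2 and Tpm1, since the slow troponins and Tnnt2 had higher means and Tpm1 a lower one in KO muscle. Where RefSeq has 2 start sites for a gene, the first is shown. RefSeq held such a sequence for 8 of the 10 members, without Tnni2 and Tnnt3. Capitals mark every match, on either strand, to the MCAT element (CATTCC or GGAATG), the E-box (CANNTG) and the TATA box (TATAAA).
Tnnc1 (chr14:31208062-31208311, plus strand): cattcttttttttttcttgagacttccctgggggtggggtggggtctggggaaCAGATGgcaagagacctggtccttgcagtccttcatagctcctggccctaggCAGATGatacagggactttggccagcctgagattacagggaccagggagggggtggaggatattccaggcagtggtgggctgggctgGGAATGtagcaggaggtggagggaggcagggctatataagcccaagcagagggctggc
Tnni1 (chr1:135799171-135799420, plus strand): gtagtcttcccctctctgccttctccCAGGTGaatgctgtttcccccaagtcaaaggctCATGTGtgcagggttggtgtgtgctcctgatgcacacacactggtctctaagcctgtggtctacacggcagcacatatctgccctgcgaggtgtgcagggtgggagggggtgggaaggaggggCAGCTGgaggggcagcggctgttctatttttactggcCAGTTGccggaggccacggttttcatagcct
Tnnt1 (chr7:4515976-4516225, minus strand): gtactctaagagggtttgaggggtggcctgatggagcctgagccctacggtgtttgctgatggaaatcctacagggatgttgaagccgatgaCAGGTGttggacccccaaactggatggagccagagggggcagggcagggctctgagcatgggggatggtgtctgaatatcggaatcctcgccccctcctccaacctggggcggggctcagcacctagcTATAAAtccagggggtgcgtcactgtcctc
Tnnt2 (chr1:135836084-135836333, plus strand): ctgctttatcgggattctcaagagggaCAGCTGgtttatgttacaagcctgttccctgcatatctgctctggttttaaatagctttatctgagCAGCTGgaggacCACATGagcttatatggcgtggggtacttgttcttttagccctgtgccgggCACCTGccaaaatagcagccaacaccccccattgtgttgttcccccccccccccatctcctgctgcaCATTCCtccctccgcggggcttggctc
Tpm1 (chr9:67049214-67049463, minus strand): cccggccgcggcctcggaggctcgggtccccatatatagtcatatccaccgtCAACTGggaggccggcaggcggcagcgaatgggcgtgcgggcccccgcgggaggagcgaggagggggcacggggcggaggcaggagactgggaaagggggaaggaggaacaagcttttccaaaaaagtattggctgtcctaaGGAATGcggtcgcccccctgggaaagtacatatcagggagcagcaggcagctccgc

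The MCAT letters, which TEAD factors are known to bind, stood at positions -27 to -22 from the start site of Tnnt2, -56 to -51 from that of Tpm1 and -58 to -53 from that of Tnnc1, and in no window of the other 5 members searched. Over all 32851 windows of this length in the RefSeq table, 12.6% held the MCAT letters, 66.2% an E-box and 12.4% the TATA letters. The TATA letters stood at -30 to -25 from the start site of Tnnt1. Matches to the CArG box and to the MEF2 site, which 1.47% and 2.92% of all windows held, were in none of the windows of the 8 members. Of the 3 genes with MCAT letters, Tnnt2 was called higher in KO muscle, Tpm1 was called lower and Tnnc1 was not called. The part of these letters in the differences was not tested.

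In WT muscle the fast genes stood far above the slow ones on the RPKM scale. It compares levels of different genes only as far as the gene length used is right for the splice forms present. Tnnc2 (15317 to 18801 RPKM) and Tnnt3 (14935 to 17102) were highest and overlapped each other. Below them came Tnni2 (6035 to 6593), Tpm1 (3601 to 4143) and Tpm2 (2812 to 3017), each apart from its neighbours in this order. The slow members were lower by orders of magnitude, with Tnnc1 at 0.766 to 41.5, Tnnt1 at 1.30 to 34.7, Tpm3 at 6.23 to 21.4 and Tnni1 at 0.312 to 9.20 RPKM, and overlapped. Tnnt2 was the lowest by mean, at 0.510 to 0.692 RPKM, and overlapped Tnni1. The order of the 5 abundant genes was the same in WT + TAM. In KO it differed at 1 place: Tpm2 (2884 to 3039 RPKM) stood above Tpm1 (1890 to 2163) with no overlap, and in KO + TAM their ranges overlapped (2638 to 3597 and 2056 to 2890). This place depends on the length scaling, since on raw counts Tpm1 took 60.0% and Tpm2 39.2% of the tropomyosins in KO. Tnnt2 stayed lowest in KO muscle, at 2.45 to 3.11 RPKM in KO and 2.73 to 4.94 in KO + TAM.

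For comparing groups, the values below are normalized CPM, counts scaled to the library total after the trimmed mean of M values (TMM). Differences are log2 fold changes from the quasi-likelihood test of edgeR, with the standard error (SE), and a gene is called where its p, adjusted over all genes tested, is at most 0.01. KO was compared with WT on the chow without tamoxifen, KO + TAM with WT + TAM (given below as under tamoxifen), and both genotypes averaged over the diets in 1 fit of the 4 groups.

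Tnnt2, the cardiac and developmental troponin T, was called higher in KO muscle on both diets. Its normalized CPM was 5.49, 6.35 and 4.15 in the WT libraries, and 8.44, 3.48, 5.98 and 4.89 in WT + TAM. It was 16.7, 20.5 and 20.6 in KO, and 20.5, 28.0, 32.8 and 21.0 in KO + TAM. Every KO library lay above every WT library on either diet. Of all genes tested, 10.7% separated the 7 KO from the 7 WT libraries in this way in 1 direction or the other, 5.51% with KO higher. The log2 fold change of Tnnt2 was 1.86 (SE 0.19, adjusted p = 0.000913) in KO against WT, where 2 members were called against 3.6% of all genes. It was 2.15 (SE 0.25, adjusted p = 0.000494) in KO + TAM against WT + TAM, where 3 members were called against 6.72% of all genes. Over both diets it averaged 1.99 (SE 0.18, adjusted p = 2.04e-06). The WT mean was 5.33 ± 1.11 (SD, n = 3), that of WT + TAM 5.70 ± 2.10 (SD, n = 4), that of KO 19.2 ± 2.22 (SD, n = 3) and that of KO + TAM 25.6 ± 5.90 (SD, n = 4). The counts behind these values were 86 to 196 in the WT libraries on both diets and 497 to 1144 in the KO libraries.

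Genes of other sources were read beside Tnnt2. Of the cardiac markers, Nppa had 0 to 3 counts and Myl7 0 to 4 counts in a library. The summed RPKM of the 5 cardiac markers (Myh6, Nppa, Tnni3, Myl7 and Ryr2) was 0.234 to 0.621 in WT, 0.572 to 0.732 in WT + TAM, 0.410 to 0.739 in KO and 0.427 to 1.07 in KO + TAM, and none was called of the 2 that passed the filter in KO against WT (Myh6 and Tnni3) or of the 3 that passed under tamoxifen (with Ryr2). Tnni3, the cardiac troponin I and the remaining troponin gene, was at 0.132 to 0.245 RPKM in WT and 0.199 to 0.552 in KO. Its log2 fold change was 0.81 (SE 0.54, adjusted p = 0.352) in KO against WT and 1.23 (SE 0.51, adjusted p = 0.123) under tamoxifen.

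Markers of immature or regenerating fibers differed between the genotypes in the same direction as Tnnt2. All 7 (Myh3, Myh8, Myl4, Chrna1, Chrng, Myog and Ncam1) were called higher in KO against WT and in KO + TAM against WT + TAM. Their summed RPKM was 24.8 to 25.7 in WT, 18.3 to 36.8 in WT + TAM, 122 to 168 in KO and 86.7 to 128 in KO + TAM. Myh3, the embryonic myosin, rose by 3.89 (SE 0.44) on the log2 scale in KO against WT, and Myh8, the perinatal myosin, by 2.60 (SE 0.18). Within the KO libraries the markers did not follow Tnnt2 throughout. From KO to KO + TAM their sums had a lower, overlapping range, while Tnnt2 had a higher mean. KO + TAM replicate 15, with the highest Tnnt2 (32.8 normalized CPM), had the lowest Myh3 of the 7 KO libraries (18.2). The part of the immature fiber markers in the Tnnt2 result was not tested. In whole muscle RNA, fewer or more cells of a type and less or more RNA per cell cannot be told apart.

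**Figure D1:**
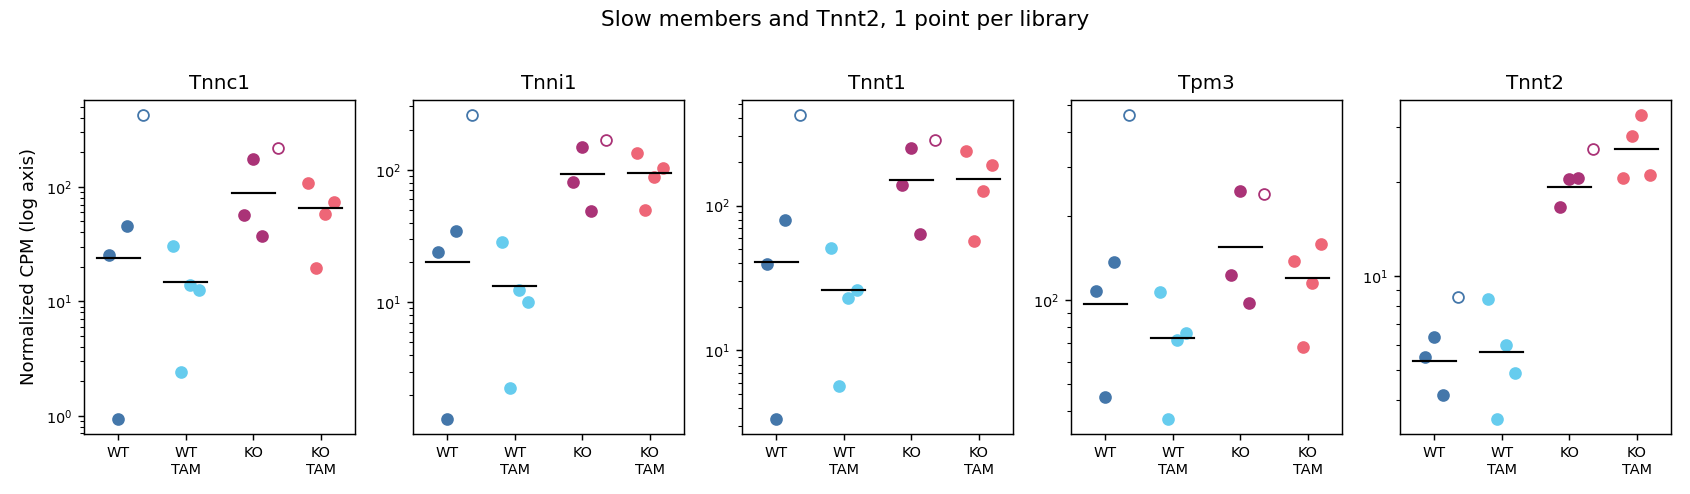
Normalized CPM (log axis, a separate scale in each panel) of the slow members Tnnc1, Tnni1, Tnnt1 and Tpm3 and of Tnnt2, with 1 filled point per library of the 14, a bar at the group mean, and open points for the 2 libraries left out, WT 1 and KO 12 by label. Tnnt2 lies between 3.48 and 8.44 in the WT groups and between 16.7 and 32.8 in the KO groups, while the slow members spread widely within each group.

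The slow troponins had higher means in KO muscle and a wide spread within each group. Tnni1 was at 24.2, 1.33 and 34.8 normalized CPM in the WT libraries, and at 28.3, 2.27, 12.4 and 10.1 in WT + TAM. It was at 81.6, 149 and 49.1 in KO, and at 135, 49.3, 88.5 and 104 in KO + TAM. No KO library overlapped a WT library on either diet, although WT libraries differed among themselves by up to 26.1-fold. The log2 fold change of Tnni1 was 2.81 (SE 0.56, adjusted p = 0.00672) in KO + TAM against WT + TAM, and 2.20 (SE 0.83, adjusted p = 0.112) in KO against WT, which did not pass. The average over the diets was 2.49 (SE 0.56, adjusted p = 0.00310), and with WT replicate 1 added it was 1.49 (adjusted p = 0.134). Under tamoxifen the call of Tnni1 was lost when WT + TAM replicate 7 or 8 or KO + TAM replicate 13, 15 or 16 was left out (adjusted p up to 0.0212), and in 1 fit of all 4 groups (adjusted p = 0.0160).

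Tnnt1 was at 39.7, 3.39 and 80.1 normalized CPM in WT, and at 50.7, 5.67, 23.0 and 26.0 in WT + TAM. It was at 138, 251 and 63.8 in KO, and at 239, 56.8, 127 and 189 in KO + TAM. The highest WT library lay above 2 of the 7 KO libraries. Averaged over the diets Tnnt1 passed, with a log2 fold change of 2.18 (SE 0.57, adjusted p = 0.00857). It was 1.87 (SE 0.86, adjusted p = 0.179) in KO against WT and 2.52 (SE 0.56, adjusted p = 0.0118) in KO + TAM against WT + TAM, and neither passed alone. Under tamoxifen it was called in 7 of 16 alternatives: DESeq2, library size scaling, no filter, limma at both pseudocounts, and without WT + TAM replicate 5 or KO + TAM replicate 14 (adjusted p from 0.00104). The call over both diets was lost in 9 of 14 fits that left out 1 library (WT replicate 2, WT + TAM 6, 7 or 8, KO 9 or 10, KO + TAM 13, 15 or 16), with adjusted p up to 0.0272. With WT replicate 1 added, Tnnt1 went to 1.31 (adjusted p = 0.178).

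Tnnc1, the slow and cardiac troponin C, was at 25.5, 0.943 and 45.3 normalized CPM in WT, and at 30.4, 2.43, 13.8 and 12.5 in WT + TAM. It was at 56.3, 174 and 37.0 in KO, and at 108, 19.7, 58.4 and 74.5 in KO + TAM. It did not pass in KO against WT, under tamoxifen or over both diets, with a log2 fold change of 1.99 (SE 0.63, adjusted p = 0.0249, 95% interval 0.65 to 3.34) averaged over the diets. It was called over both diets in 3 of 24 alternatives (adjusted p = 0.00801 with library size scaling, 0.00583 with no filter and 0.00799 with limma at a pseudocount of 1), and under tamoxifen with no filter (adjusted p = 0.00793). Tpm3, the slow tropomyosin, was at 37.7 to 137 normalized CPM in the 7 WT libraries and at 67.6 to 245 in the 7 KO libraries, and did not pass either. Averaged over the diets, Tpm3 stood at 0.67 (SE 0.29, adjusted p = 0.0866, 95% interval 0.06 to 1.29). Of the 50-base stretches of its exons, 23.2% also occur in the copies Tpm3-rs7 and Gm7848, so that its counts are less certain. Tpm3-rs7 itself had 5 to 21 counts per library.

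The slow genes varied together from library to library. Within WT, the order from lowest to highest was replicate 3, 2 and 4 for Tnni1, Tnnt1, Tnnc1 and Tpm3, and also for Myh7, the slow myosin heavy chain, which spanned 102-fold. Within KO it was 11, 9 and 10 for all 5 genes. In WT + TAM replicate 6 was lowest and 5 highest for all 5, and in KO + TAM replicate 14 was lowest for all 5. The fast troponins had another order in WT and in KO. In KO + TAM they shared that of the slow troponins, and in WT + TAM Tnni2 and Tnnt3 had the order of Tnnt1, Tpm3 and Myh7, and Tnnc2 that of Tnni1 and Tnnc1. Tnni2, Tnnt3 and Tnnc2 spanned 1.25-, 1.31- and 1.38-fold among the WT libraries. Myh7 itself did not pass between the genotypes, at 1.47 (SE 1.05, adjusted p = 0.384) in KO against WT and 1.82 (SE 0.75, adjusted p = 0.117) under tamoxifen. The 6 slow fiber markers summed to 22.1 to 261 RPKM in WT, 28.8 to 121 in WT + TAM, 111 to 341 in KO and 97.1 to 254 in KO + TAM. Of these 6, none was called in KO against WT. Atp2a2, the slow calcium pump, rose by 1.05 (adjusted p = 0.00214) in KO + TAM against WT + TAM. The part of the slow fiber content of each sample in the differences between genotypes was not tested.

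**Figure D2:**
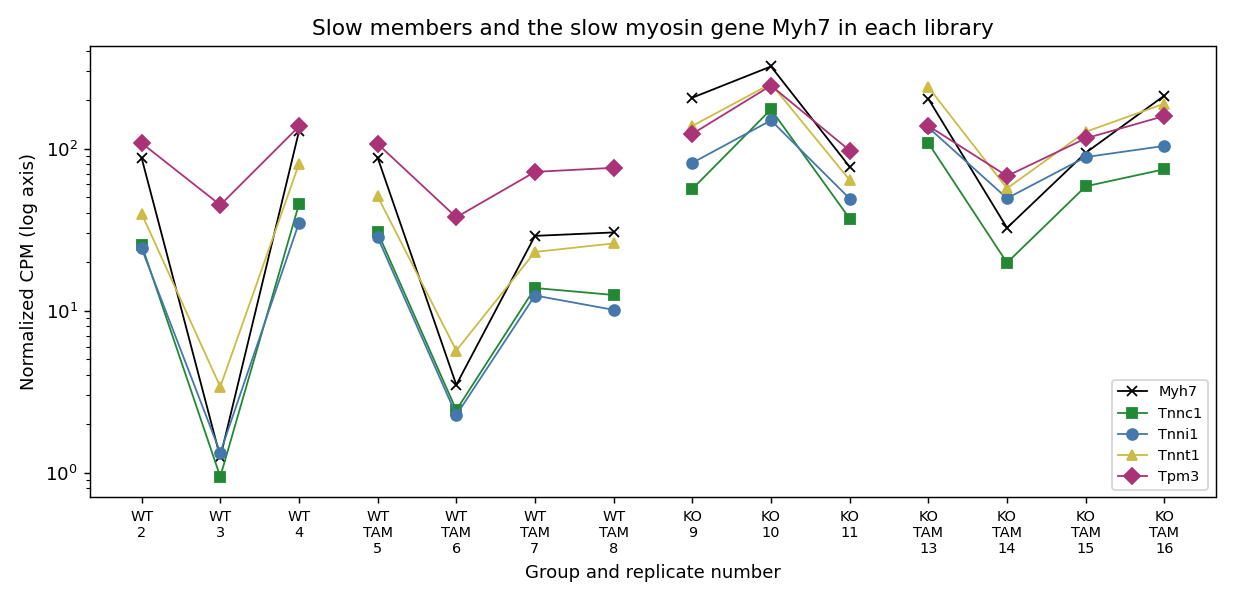
Normalized CPM (log axis) of Myh7 and of the slow members Tnnc1, Tnni1, Tnnt1 and Tpm3 in each of the 14 libraries, with lines joining libraries of 1 group for reading only. The 5 genes are lowest in WT replicate 3, WT + TAM replicate 6, KO replicate 11 and KO + TAM replicate 14 of their groups.

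The fast troponins were lower in KO muscle, in this direction over both diets under each scaling. Tnnt3, the fast troponin T, was at 21546, 28132 and 22497 normalized CPM in WT, and at 28562, 23847, 25522 and 25629 in WT + TAM. It was at 12172, 14207 and 14572 in KO, and at 19995, 13346, 13607 and 17048 in KO + TAM. No KO library reached a WT library on either diet, and 5.15% of all genes separated the genotypes in this direction. The log2 fold change was -0.78 (SE 0.12, adjusted p = 0.000215) averaged over the diets. It was -0.81 (SE 0.19, adjusted p = 0.0265) in KO against WT and -0.71 (SE 0.18, adjusted p = 0.0184) under tamoxifen, and neither passed alone. With limma the value over both diets was -0.48 at either pseudocount and no longer called (adjusted p = 0.0132 and 0.0251).

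Tnni2, the fast troponin I, was at 9369, 11671 and 9853 normalized CPM in WT, and at 12384, 9739, 11012 and 11149.9 in WT + TAM. It was at 5809, 7041 and 6951 in KO, and at 9527, 6449, 6465 and 7408 in KO + TAM. Of the KO libraries, 6 lay below all WT libraries, and KO + TAM replicate 13 overlapped them. Averaged over the diets, Tnni2 stood at a log2 fold change of -0.62 (SE 0.12, adjusted p = 0.000871). The fast troponin C, Tnnc2, was at 13640, 17786 and 12852 normalized CPM in WT, and at 17416, 11894, 15733 and 15510 in WT + TAM. It was at 7360, 11251 and 9455 in KO, and at 13424, 8517, 8798 and 10179 in KO + TAM. Again 6 of the 7 KO libraries lay below all WT libraries. Its log2 fold change averaged over the diets was -0.63 (SE 0.15, adjusted p = 0.00395). In neither diet alone did Tnni2 or Tnnc2 pass. Without WT replicate 3 or KO replicate 9 the call of Tnnc2 over both diets was lost (adjusted p up to 0.0122), and scaling by library size alone gave -0.32 (adjusted p = 0.0411) for Tnnc2 and -0.32 (adjusted p = 0.0107) for Tnni2. Limma at both pseudocounts lost the calls of both genes too. That of Tnnc2 was also lost with KO replicate 12 added and with all 16 libraries. Over these settings adjusted p was up to 0.151 for Tnnc2 and 0.0547 for Tnni2. The gene Ube2c on the opposite strand covers 592 of the 800 exon bases of Tnnc2 (74.0%). Ube2c encodes an enzyme that attaches ubiquitin in dividing cells, and it was at 4063 to 41866 counts. It stood at -1.68 (SE 0.26) on the log2 scale over both diets. The strand setting of the counting is not given in the sources used here, and without it reads of the pair cannot be told apart. Nisch spans Tnnc1 and Prr33 spans Tnnt3 on the opposite strand, both with 0 bases of exon in common.

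Tpm1 fell in KO muscle on both diets. It was at 25114, 31775 and 24491 normalized CPM in WT, and at 28793, 23688, 26529 and 26940 in WT + TAM. It was at 10735, 11180 and 12637 in KO, and at 18182, 13487, 11412 and 16499 in KO + TAM. On either diet the highest KO library stayed under the lowest WT library. The log2 fold change was -1.23 (SE 0.19, adjusted p = 0.00534) in KO against WT and -0.85 (SE 0.18, adjusted p = 0.00923) in KO + TAM against WT + TAM. In KO against WT the call was lost when WT replicate 2 or 4 or KO replicate 9, 10 or 11 was left out (adjusted p up to 0.0275), and under tamoxifen when any library but KO + TAM replicate 13 was left out (up to 0.0307). In KO against WT the call was also lost with limma at both pseudocounts and with WT replicate 1 added (adjusted p up to 0.0148). Under tamoxifen the call was also lost with limma (-0.59, adjusted p = 0.0203 and 0.0230) and with at least 10 counts required in every library (adjusted p = 0.0118). Over both diets, where the call was kept in 14 of 14 such fits, Tpm1 averaged -1.05 (SE 0.12, adjusted p = 2.01e-05). The WT mean was 27127 ± 4037 (SD, n = 3), that of WT + TAM 26487 ± 2110 (SD, n = 4), that of KO 11517 ± 995 (SD, n = 3) and that of KO + TAM 14895 ± 3027 (SD, n = 4). Against the untreated WT, KO + TAM stood at -0.89 (SE 0.22, adjusted p = 0.0171), which did not pass, while Tnnt2 stood at 2.24 (SE 0.21, adjusted p = 0.000217) and was the 1 member called, against 7.7% of all genes.

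Tpm2 was at 6746 to 9943 normalized CPM in the WT libraries on both diets and at 6568 to 10154 in the KO libraries, which overlapped. Without tamoxifen Tpm2 did not overlap, at 8580 to 9773 in WT and 7348 to 7683 in KO, where 35.7% of all genes had no overlap. Its log2 fold change averaged over the diets was -0.26 (SE 0.12, adjusted p = 0.117, 95% interval -0.52 to 0.00), and it did not pass in any comparison. Scaling by library size alone in place of TMM moved the median over all genes from 0.01 to 0.31 on the log2 scale in this contrast, and with it Tpm2 to 0.05, so that its direction depends on the scaling. Tpm4, the remaining tropomyosin gene and a cytoplasmic form, was at 0.04 (SE 0.19, adjusted p = 0.921) in KO against WT and 0.25 (SE 0.21, adjusted p = 0.451) under tamoxifen.

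**Figure D3:**
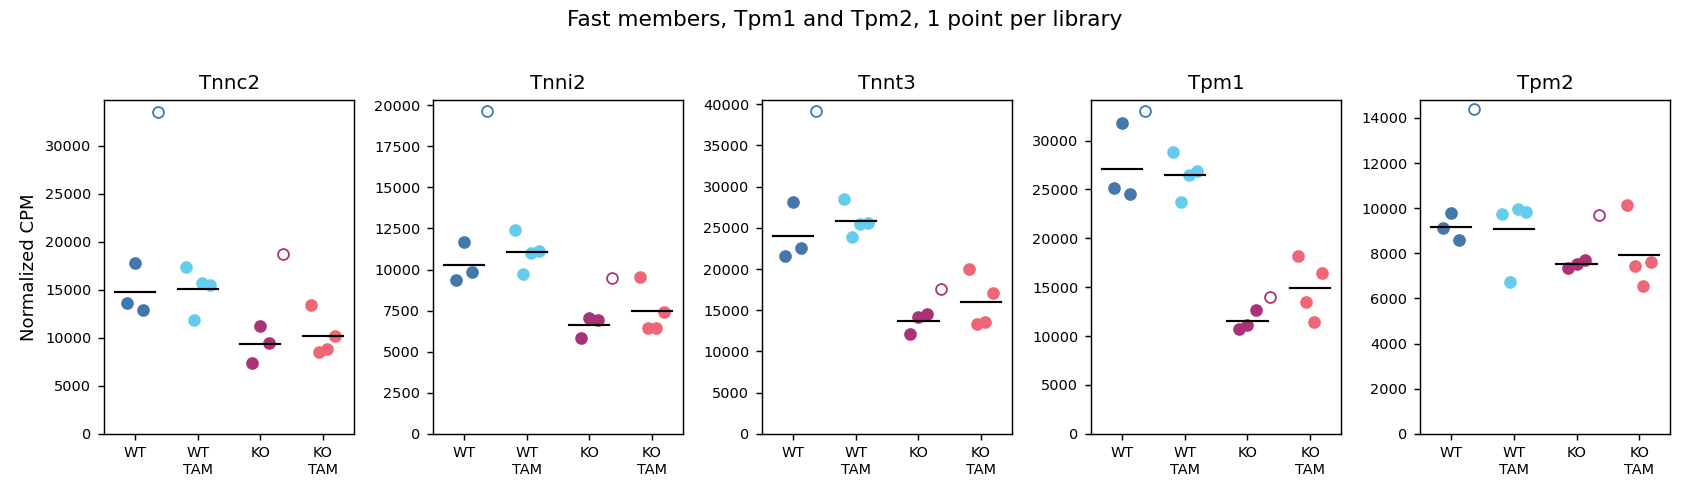
Normalized CPM (linear axis from 0, a separate scale in each panel) of Tnnc2, Tnni2, Tnnt3, Tpm1 and Tpm2, with 1 filled point per library of the 14, a bar at the group mean, and open points for the 2 libraries left out, WT 1 and KO 12 by label. The filled KO points of Tnnt3 and Tpm1 lie below all filled WT points, at most 19995 and 18182.

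**Figure D4:**
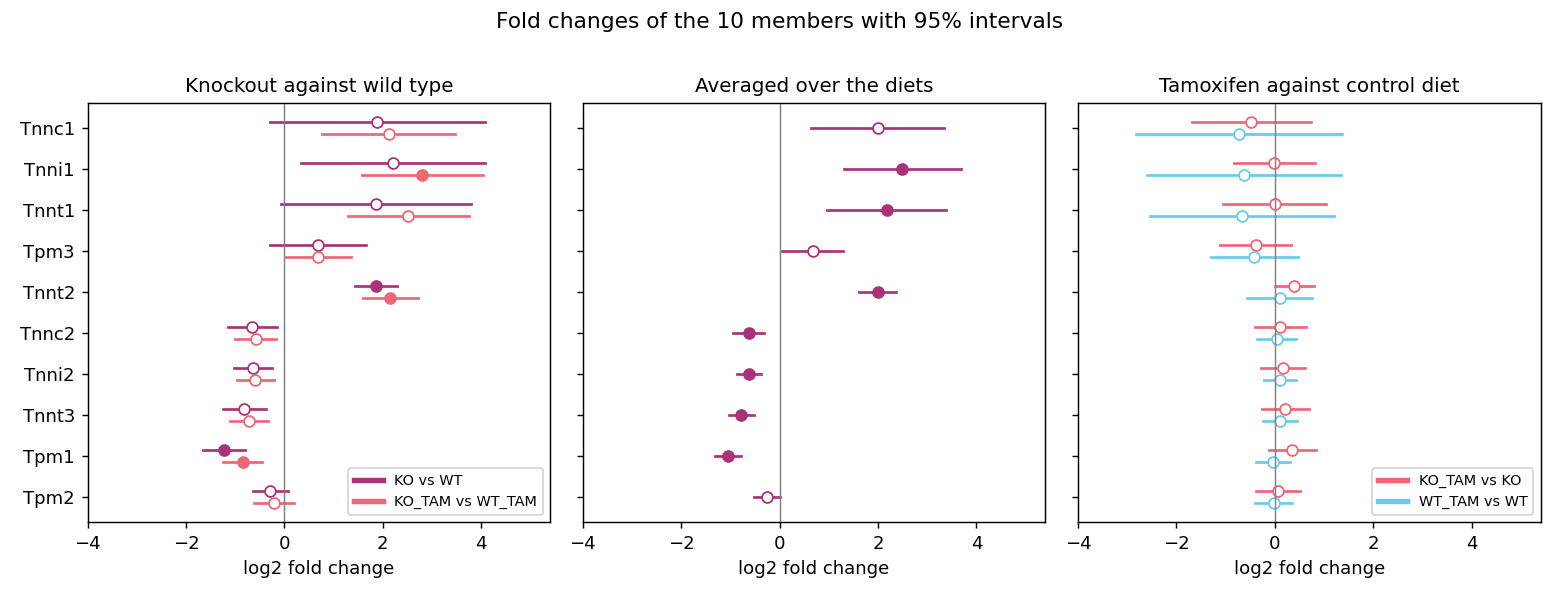
Log2 fold changes of the 10 members (points) with 95% intervals (lines), for KO against WT on each diet, for the genotypes averaged over the diets, and for tamoxifen against the chow without it in each genotype, with filled points where the adjusted p is at most 0.01. Intervals of the slow members are the widest, Tnnt2 and Tpm1 are filled in each genotype panel, and no point is filled in the tamoxifen panel.

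The share of each isoform in its family, taken on RPKM within a library, does not depend on the scaling between libraries, and is given as a description with no test. For Tpm1 the share in the 3 tropomyosins was 56.8% ± 2.18 (SD, n = 3) in WT and, with tamoxifen, 56.9% ± 3.02 (SD, n = 4). It was 40.5% ± 1.60 (SD, n = 3) in KO and 45.5% ± 2.47 (SD, n = 4) in KO + TAM. The KO libraries (39.4 to 42.3%) and the KO + TAM libraries (43.6 to 49.1%) did not overlap, and both lay below the WT groups (54.4 to 61.1%). The share of Tpm2 did not overlap between KO and KO + TAM either, as its complement, while those of Tpm3, Tnni1, Tnnc1, Tnnt1 and Tnnt2 did overlap. The Tpm1 gene itself was not called for tamoxifen. How often shares in other gene families separate KO from KO + TAM was not counted, so an effect of tamoxifen on the share is not shown. Tpm2 made up 43.0% ± 2.07 (SD, n = 3) in WT and 59.0% ± 1.44 (SD, n = 3) in KO, and Tpm3 0.225% ± 0.124 and 0.585% ± 0.303. The size of the shares depends on the length scaling: on raw counts Tpm1 took 74.4% in WT and 60.0% in KO, and so stayed above Tpm2 there.

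The slow forms stayed minor components of the troponins in every library. The share of Tnni1 in troponin I was 0.00473 to 0.147% in WT, 0.00968 to 0.0949% in WT + TAM, 0.293 to 0.873% in KO and 0.317 to 0.585% in KO + TAM. The share of Tnnt1 in troponin T was 0.00760 to 0.224% in WT and 0.276 to 1.10% in KO. The share of Tnnc1 in troponin C was 0.00407 to 0.270% in WT and 0.299 to 1.18% in KO. Tnnt2 made up 0.00397% ± 0.000637 (SD, n = 3) of troponin T in WT. With tamoxifen this was 0.00389% ± 0.00114 (SD, n = 4) in WT mice. It was 0.0251% ± 0.000603 (SD, n = 3) in KO and 0.0302% ± 0.0119 (SD, n = 4) in KO + TAM. On raw counts the slow shares were larger, up to 2.07% for Tnni1 in KO. The library labelled WT replicate 1, with 0.546% of Tnni1, 0.967% of Tnnc1 and 0.675% of Tnnt1, lay within the KO range, and with 0.00387% of Tnnt2 within the WT range.

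**Figure D5:**
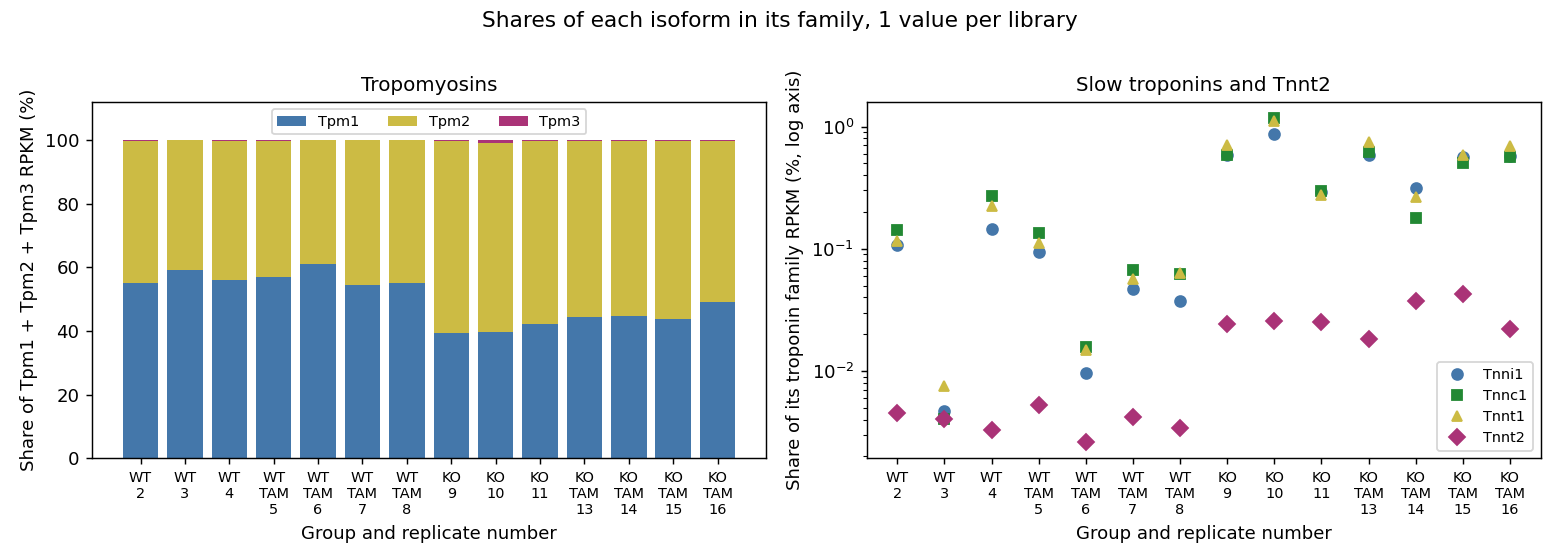
Left, the share (%) of Tpm1, Tpm2 and Tpm3 in their summed RPKM, and right, the share (%, log axis) of Tnni1, Tnnc1, Tnnt1 and Tnnt2 in the summed RPKM of troponin I, C or T, in each of the 14 libraries. Tpm1 is at 54.4 to 61.1% in the WT groups and at 39.4 to 49.1% in the KO groups, and no slow troponin exceeds 1.18%.

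Tamoxifen was examined within each genotype. In KO + TAM against KO, 0 of 15062 genes passed in edgeR, with 1137 at an unadjusted p of at most 0.05. DESeq2, without the filter on low counts, called 68 of 23010 genes, or 0.296%, with no member among them. The member values ran from -0.48 (SE 0.55, 95% interval -1.69 to 0.74) for Tnnc1 to 0.39 (SE 0.18, 95% interval 0.00 to 0.79) for Tnnt2. Tpm1 was at 0.36 (SE 0.22, adjusted p = 0.799, 95% interval -0.13 to 0.84). In WT + TAM against WT, 19 genes were called, or 0.131% of those tested, and no member. Alternatives gave from 2 genes (without WT replicate 4) to 208 (DESeq2), again with no member among them. There the members ran from -0.72 (SE 0.94, 95% interval -2.82 to 1.37) for Tnnc1 to 0.10 (SE 0.15, 95% interval -0.24 to 0.44) for Tnnt3.

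Averaged over the genotypes, tamoxifen gave 92 called genes, or 0.591%, and again no member, with values from -0.59 (SE 0.61) for Tnnc1 to 0.25 (SE 0.18) for Tnnt2. The difference between the tamoxifen effects in KO and in WT, tested as an interaction, called 0 of 15556 genes in edgeR, with 664 at an unadjusted p of at most 0.05, and 12 in DESeq2. For Tpm1 this difference was 0.41 (SE 0.25, adjusted p = 1.00, 95% interval -0.12 to 0.93).

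The count of members called in the genotype comparisons depended on the rule. At an adjusted p of at most 0.05, 4 members were called in KO against WT (12.8% of all genes), the other 2 being Tnni2 and Tnnt3. There were 7 in KO + TAM against WT + TAM (17%), in KO + TAM against WT 2 (20%), and averaged over the diets 8 (33.3%). DESeq2 at 0.01 called 5 members (7.2%), 7 (8.43%), 3 (9.96%) and 7 (16%) in these comparisons. Its shares are of 22646, 22901, 22602 and 24087 genes, since the filter on low counts was not applied there. They are thus not on the same set of genes as the edgeR shares. Without a test, 7 members had no overlap between KO and WT libraries, where 35.7% of all genes had none, and 6 between KO + TAM and WT + TAM, where 22.4% had none.

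Partners of the members in the thin filament were taken from a list of 22 genes. In KO against WT, 1 was called higher and 2 lower, with a median log2 fold change of 0.02, the same as that of all genes. Under tamoxifen, in KO + TAM against WT + TAM, 3 were called higher and 2 lower, with a median of -0.17 against -0.01 for all genes. Of all genes, 3.6% were called in KO against WT and 6.72% under tamoxifen. Actc1, the cardiac alpha actin, which skeletal muscle makes early in life, fell by 2.88 (SE 0.39, adjusted p = 0.00329) on the log2 scale in KO against WT and was at -2.18 (SE 0.60, adjusted p = 0.0307) under tamoxifen, which did not pass. It lay at 4329 to 10822 normalized CPM in WT and at 538 to 1245 in KO. Actc1 thus moved opposite to Tnnt2, another gene of the heart, in KO against WT.

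Xirp1, which encodes an actin-binding repeat protein, rose by 1.21 (SE 0.13) in KO against WT and by 1.70 (SE 0.26) under tamoxifen. Capza2, a subunit of the capping protein of actin filaments, was called in both comparisons at -0.92 (SE 0.16) and -0.59 (SE 0.12). Under tamoxifen Lmod2, a leiomodin that nucleates thin filaments, rose by 1.46 (SE 0.25), Klhl40, which stabilizes leiomodin and nebulin, rose by 0.78 (SE 0.14), and Tmod4, which caps their pointed ends, was called at -0.47 (SE 0.10).

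A list of 25 regulators of fiber type and of the splicing of these genes was read in the same way. In KO against WT, 2 were called higher and 1 lower (median -0.08), against 3.6% of all genes called. Under tamoxifen, 3 were called higher and 4 lower (median -0.16), against 6.72% of all genes called. Sox6, a repressor of slow fiber genes, was called at -0.98 (SE 0.15, adjusted p = 0.00493) and -1.004 (SE 0.17, adjusted p = 0.00351) in these comparisons. It lay at 106 to 191 normalized CPM in the 7 WT libraries and at 54.5 to 77.0 in the 7 KO libraries, which did not overlap.

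Tead4, one of the TEAD factors known to bind the MCAT letters shown for Tnnt2, Tpm1 and Tnnc1, rose by 1.66 (SE 0.26) and 1.56 (SE 0.22), and lay at 2.58 to 4.99 normalized CPM in the WT libraries and at 7.31 to 18.5 in the KO libraries. Myog, myogenin, rose by 1.95 (SE 0.16) and 1.40 (SE 0.28). Mef2c, a transcription factor of muscle genes, rose by 0.60 (SE 0.11) under tamoxifen, where Srf, the serum response factor, was called at -0.77 (SE 0.14) and Rbfox1, a splicing factor, at -0.52 (SE 0.10). No link between these genes and the members was tested.

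Among the 9 fast fiber markers, 2 were called lower in KO against WT and 5 in KO + TAM against WT + TAM, with medians of -0.98 and -0.90. Myh4, the myosin of the fastest fibers, was at -1.29 (SE 0.27, adjusted p = 0.0184) and -1.24 (SE 0.16, adjusted p = 0.000833). Myh1 and Myh2, the myosins of the less fast forms, had higher means in KO muscle and were not called. Mean normalized CPM of Myh1 was 2971 in WT, 5874 in KO, 4334 in WT + TAM and 7550 in KO + TAM. For Myh2 it was 743, 1736, 818 and 2363 in the same order. Of other cell types, 0 of 5 smooth muscle, 5 fibroblast, 3 endothelial, 4 fat and 4 red blood cell markers were called in either pairwise comparison. Of all genes, 3.6% were called in KO against WT and 6.72% in KO + TAM against WT + TAM, so few calls would be awaited in lists this short. Over both diets 7 members and 19.4% of all genes were called. In that contrast 8 of the 9 fast fiber markers were called lower, with a median of -0.82. Of the 5 skeletal muscle tissue markers (Acta1, Ckm, Des, Mylpf and Myh4), 4 were called lower and 1 higher. There 2 smooth muscle markers were called lower (Acta2 at -0.44 and Myh11 at -0.50) and 1 fibroblast marker higher (Pdgfra at 0.42). The immune markers, of which 2 of 5 passed the filter, summed to 2.39 to 6.48 RPKM in the WT libraries and to 7.38 to 31.0 in the KO libraries, where Cd68, a macrophage gene, was at 1.39 (SE 0.32, adjusted p = 0.0234) in KO against WT. Both immune markers tested were called higher over both diets, Cd68 at 1.503 (SE 0.32, adjusted p = 0.00208) and Ptprc, the leukocyte gene for CD45, at 0.88 (SE 0.20, adjusted p = 0.00364). The part of these markers in the member results was not tested.

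The genes most like a member across libraries were found by the root mean square difference of the log2 normalized CPM, each centred on its own mean, over the 14 libraries and 15556 genes. Nearest to Tnni1, whose own SD was 1.999, were Myh7 (0.72), Ankrd2 (0.85) and Myoz2 (0.88). Nearest to Tnnt2 (SD 1.07) were Chrna1 (0.32), Tmem176a (0.35) and Nfkb2 (0.37). Nearest to Tpm1 (SD 0.56) were Pdlim7 (0.17), Ckm (0.17) and Eno3 (0.17), and nearest to Tnni2 (SD 0.36) were Aldoa (0.10), Lbx1 (0.10) and Rtn2 (0.11). The 14 libraries span both genotypes, so that a genotype difference common to 2 genes enters their likeness, which is a description.

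The results differed when the libraries left out by the study were added. The library labelled WT replicate 1 held the highest level of 9 members among all 16 libraries, with 426 normalized CPM of Tnnc1, 259 of Tnni1, 422 of Tnnt1 and 459 of Tpm3, and the members took 11.3% of its counts. Its Tnnt2 level was 8.52, near the highest of the other WT libraries. With it added, KO against WT was 1.64 (adjusted p = 0.00983) for Tnnt2, the 1 member still called, and -1.32 (adjusted p = 0.0132) for Tpm1. Tnni1 went to 0.18 and Tnnt1 to 0.10, and Tnnc1 turned to -0.52 and Tpm3 to -0.31. With the library labelled KO replicate 12 added, Tnnt2 was at 1.96 (adjusted p = 0.00163) and Tpm1 at -1.17 (adjusted p = 0.00753), the same 2 members called. With all 16 libraries, the average over the diets called 4 members, Tnnt2, Tpm1, Tnnt3 and Tnni2, and Tnni1 was at 1.62 (adjusted p = 0.0843).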

How the data were processed

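RNA was sequenced from quadriceps muscle in 16 libraries on an Illumina HiSeq after a TruSeq library preparation from 1 µg of total RNA. Per the authors, reads were aligned to GRCm38 with STAR (2.5.0c in the submitters' processing notes) and counted per gene with HTSeq, and the deposited count table holds raw counts. The deposited RPKM values follow these counts over the library total, with a largest relative deviation of 0.0004 over 2537 genes. For annotation and strand setting, the value is not given in the sources used here. The implied lengths equal the GENCODE vM21 exon union for all members but Tnnt3 (1391 against 1583 bases). No 2 of the 120 pairs of libraries were identical.

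Counts were tested in R 4.3.3 with edgeR 4.0.16 (TMM, filterByExpr with a minimum count of 10 and a minimum total of 15, quasi-likelihood test, Benjamini-Hochberg adjustment over all genes tested). Pairwise comparisons used only their own libraries, and averages and the interaction 1 fit of the 4 groups. The test was checked on simulated data. Alternatives were DESeq2 1.42.0, a threshold of 0.05, limma 3.58.1 on RPKM (log2, pseudocount 0.1 or 1), scaling by RLE or library size, other filters, 1 fit for all groups, libraries added and libraries left out singly. The members and gene lists were chosen with earlier results of these data known. Named beside the 10 members are called genes of 2 lists (at most the 3 of lowest p in each direction), their paralogs, the defining myosins, genes that overlap a member and the 3 genes most like 4 members. Other marker genes were named after their values were seen.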

Additional observations from a re-analysis of the deposited data

Results flagged for a closer look

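Among 68 groups of 4 libraries tested for a value that stands apart (Dixon's test at the 95% level, with all 16 libraries), 6 stood out where chance gives about 3.4. The library labelled WT replicate 1 had 425.8 normalized CPM of Tnnc1 where the other 3 of its group had 0.943 to 45.3. It had 259.1 of Tnni1, where those 3 had 1.33 to 34.8. Tpm2 was at 6746 normalized CPM in WT + TAM replicate 6, against 9742 to 9943 in the others of that group, and at 9693 in KO replicate 12, against 7348 to 7683. The share of Tnni1 in troponin I was 0.3169% in KO + TAM replicate 14, against 0.566 to 0.585%. The share of Tpm2 in the tropomyosins was 50.41% in KO + TAM replicate 16, against 55.0 to 55.9%.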

How the results depend on the processing

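The number of members called moved by over 1.5 times under several settings. In KO against WT (2 members) it was 4 at a threshold of 0.05, 5 with DESeq2, 1 with limma at either pseudocount and 1 with WT replicate 1 added. It was 1 to 2 with each library left out in turn: Tpm1 was called without WT replicate 3 alone, with adjusted p from 0.00880 to 0.0275. For KO + TAM against WT + TAM (3 members) it was 7 at 0.05, 7 with DESeq2, 5 with no filter and 1 to 3 with each library left out. In these fits Tpm1 kept its call only without KO + TAM replicate 13 (adjusted p 0.00802 to 0.0307), and Tnni1 lost it without WT + TAM replicates 7 and 8 and KO + TAM replicates 13, 15 and 16 (0.00224 to 0.0212). For KO + TAM against WT (1 member) it was 2 at 0.05, 3 with DESeq2, 3 with no filter and 2 in the fit of 4 groups. Averaged over the diets (7 members) it was 4 with limma at a pseudocount of 0.1 and 4 with all 16 libraries. There Tnnt2 and Tpm1 were called in 24 of 24 alternatives, Tnni1 in 22, Tnnt3 in 22, Tnni2 in 21, Tnnc2 in 17, Tnnt1 in 13 and Tnnc1 in 3.

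Directions turned in these cases, and the cause was not tested unless given. With WT replicate 1 added, KO against WT was -0.52 for Tnnc1 and -0.31 for Tpm3, and WT + TAM against WT was -0.12 for Tnnt3. With all 16 libraries, KO against WT was -0.0637 for Tnnc1 and -0.12 for Tpm3. Tpm2 was at 0.0309 with library size scaling, 0.0308 with limma at a pseudocount of 1 and 0.0308 at 0.1 in KO against WT. It was at 0.0603, 0.0671 and 0.0671 in KO + TAM against WT + TAM, and at 0.0455, 0.0489 and 0.0490 averaged over the diets. These 3 settings scale by library totals. With each library left out, Tnnc1 ran from -0.84 to 0.48 in KO + TAM against KO and from -1.36 to 0.14 in WT + TAM against WT. Member values not given in the text for tamoxifen, the interaction and KO + TAM against WT turned in 92 of 776 estimates, none of them called. Group means of the shares moved by over 1 SD in 22 of 42 alternatives (raw counts, or a library added).

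Over all genes, 531 were called in KO against WT (282 higher) and 120 to 1885 under the alternatives, 1163 with library size scaling (1023 higher). In KO + TAM against WT + TAM 979 were called (498 higher), with a range of 424 to 2476, and 1874 with library size scaling (1657 higher). Averaged over the diets 3013 were called (1398 higher), and 5100 with library size scaling (4538 higher). No paired analysis was possible because the groups share no replicate numbers and the litter of each sample is not given in the sources used here. Each group held 3 or 4 libraries, and intervals were widest for the slow genes.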
